A study of Rattus norvegicus with 20 samples.

Results

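Ethinyl estradiol, estradiol benzoate and equilin are the 3 steroidal estrogens of a rat study, and their 9 arrays, of 20 in all, are described here as a class. They were chosen by their sample labels, 3 arrays per compound, and each compound was given equal weight against the 4 arrays of vehicle-treated rats. Every rat in these 4 groups was a female Sprague Dawley, had its ovaries removed at 4 weeks of age, recovered for 2 weeks and was then gavaged once a day for 3 weeks, which put its age at 9 weeks when the arteries were collected. Vehicle rats received a cyclodextrin solution, and estrogen rats received 1 of the compounds at 0.15 mg/kg per day. Mesenteric arteries were freed from veins and fat, and the RNA of each animal was hybridised to 1 single-colour CodeLink array. All groups therefore share the loss of the ovaries before puberty and 3 weeks of daily gavage, and the controls have no ovarian estrogen source.

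Estrogens act mainly through the nuclear receptors ERα and ERβ, which bind DNA as dimers at estrogen response elements or are tethered to other factors, and also through the membrane receptor GPER1. In arteries, estrogens are known for effects on endothelial nitric oxide, on smooth muscle proliferation and on extracellular matrix, and in the liver and fat they alter lipid synthesis. The compounds differ by named changes in structure. Ethinyl estradiol is estradiol with an added ethynyl group, estradiol benzoate is an ester of estradiol with benzoic acid, and equilin, an estrogen of pregnant mares, has a ketone in place of a hydroxyl group and an additional double bond in the B ring.

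Of the probes with 1 gene symbol, 13321 (10226 genes) were bright enough to be tested. Levels below are log2 intensities relative to the median tested probe of the same array, so a level of 0 is that of the median probe. Changes are differences of such levels between groups, and a level is not compared between genes. A probe was called, and is said to have risen or fallen, where limma's Benjamini-Hochberg adjusted p was under 0.05. The 9 estrogen arrays and vehicle array 1 form an array set apart from vehicle arrays 2 to 4, recognised by 384 unnamed, regularly spaced probes. Comparisons between estrogens lie wholly within that set, whereas a comparison with vehicle rests on 1 control of the same set and 3 of the other. Smooth muscle markers were bright, and so were fat cell markers: adiponectin (Adipoq) had a mean level of 5.34 over the 13 arrays, although the vessels had been cleared of fat. Precision is limited by 3 or 4 arrays per group.

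Across the 3 estrogens taken as a class, 301 probes (280 genes) were called, 2.26% of those tested. Of these, 220 rose (1.65%) and 81 fell (0.608%). Probes are counted singly, and 15 of the 220 were probes for 1 gene, Pc (pyruvate carboxylase). All 3 compounds had the sign of the class change in 297 of the 301, 218 higher and 79 lower, and 1 compound had the other sign in 4. Over all tested probes, called or not, 7497 (56.3%) had 1 sign in all 3. These 3 changes share the vehicle arrays, so agreement in sign is given as a count. The 9 estrogen and 4 vehicle arrays did not overlap in 170 of the 301 probes, against 377 of all those tested (2.83%).

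How many probes rose and how many fell depended on the scaling. With quantile normalisation 66 rose and 68 fell, and with each array centred on all its probes 48 rose and 141 fell. The median tested probe changed by 0.03 as scaled here, by -0.02 after quantile normalisation and by -0.13 after centring on all probes. Dim probes made up much of the difference: 160 of the 220 that rose were dimmer than the median probe with 1 symbol (a mean level of 0.449), and 23 of those 160 were still called after quantile normalisation, against 41 of the 60 brighter ones. All 301 probes kept their sign in both other scalings, and 98 of them, 41 higher and 57 lower, were called in all 3. When the array set entered the fit as a block, a setting in which vehicle array 1 is the only control, all 301 again kept their sign, 81 probes (0.608%) were called, and 33 of these were among the 301.

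**Figure D1:**
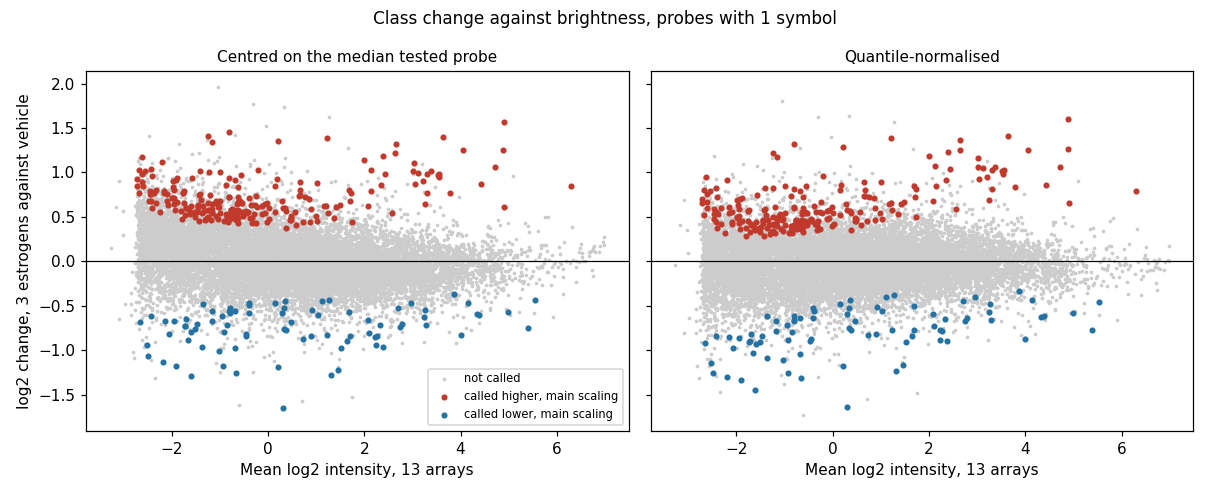
Class change (log2, mean of the 3 estrogens minus vehicle, vertical axis) against mean log2 intensity over the 13 arrays (horizontal axis), for probes with 1 symbol, as scaled here (left) and after quantile normalisation (right). Red and blue points are the 220 probes called higher and the 81 called lower in the left-hand scaling; dim red points lie closer to 0 in the right-hand panel.

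Genes of fatty acid synthesis were higher. Of 23 such genes tested, 8 rose and none fell, where 1.55% of all tested genes rose and 0.675% fell. The median change of the list was 0.46, against -0.04 over all genes, and it stayed above 0 with quantile normalisation (0.34) and centring on all probes (0.30). The largest class change among all genes that rose without overlap between groups was that of Scd, the desaturase that puts a double bond into stearoyl-CoA. Its levels were 2.62, 4.04, 4.60 and 3.96 in vehicle, 5.94, 5.91 and 5.84 with ethinyl estradiol, 4.81, 4.75 and 4.71 with estradiol benzoate, and 5.41, 5.70 and 5.29 with equilin. The lowest estrogen array lay above the highest vehicle array, and vehicle array 1 was the lowest of all. The class change was 1.57 ± 0.26 (SE; 2.96-fold, adjusted p = 0.0157), and against vehicle array 1 alone, in the block for array set, it was 2.75.

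Me1, the malic enzyme of the cytosol and a source of NADPH, had levels of 2.51, 2.67, 2.73 and 2.76 in vehicle and of 2.87, 3.08 and 2.79 with estradiol benzoate. Ethinyl estradiol gave 4.36, 5.14 and 5.13, and equilin gave 4.36, 4.86 and 4.05. The estradiol benzoate arrays were thus just above vehicle and the other 6 far above it, with a class change of 1.40 ± 0.17 (SE; 2.65-fold, adjusted p = 0.00429). Acaca, acetyl-CoA carboxylase 1, which makes the malonyl-CoA that chains are built from, had levels of 3.66, 4.08, 4.31 and 4.00 in vehicle. It reached 5.50, 5.96 and 5.11 with ethinyl estradiol, 4.94, 4.65 and 4.39 with estradiol benzoate and 5.68, 5.81 and 5.36 with equilin. No estrogen array overlapped vehicle, and the class change was 1.26 ± 0.17 (SE; adjusted p = 0.00875).

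The other members of the list that rose were Acly, which splits citrate into acetyl-CoA (1.07), Acss2, which activates acetate (0.77), Aacs, which activates acetoacetate (0.93), the elongase Elovl6 (1.35) and Thrsp, a nuclear protein of lipogenic tissues (0.85). Among members that were not called, Fasn, the fatty acid synthase itself, had changes of 1.91 with ethinyl estradiol, -0.66 with estradiol benzoate and 1.65 with equilin (class adjusted p = 0.411), and the brighter of 2 Scd2 probes had a class change of -0.37. By compound, the list's median change was 0.71 with ethinyl estradiol, 0.15 with estradiol benzoate and 0.59 with equilin. These genes are also abundant in fat cells. The summed intensity of 6 fat cell markers was 698 to 988 in vehicle, 646 to 908 with ethinyl estradiol, 726 to 899 with estradiol benzoate and 916 to 1002 with equilin, with no marker at 0. None of the 6 was called in limma, 2 were higher at an unadjusted p under 0.05, and the part of fat cell content was not tested.

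In the pyruvate and glycolysis list 3 of 21 tested genes rose, where 1.55% of all tested genes rose. Mpc1, a subunit of the mitochondrial pyruvate carrier, was at 3.76, 3.73, 4.02 and 3.78 in vehicle, at 4.98, 5.15 and 5.25 with ethinyl estradiol, at 4.04, 3.92 and 3.93 with estradiol benzoate, and at 4.85, 5.26 and 4.83 with equilin. Estradiol benzoate overlapped vehicle and the other estrogens did not. Pdk1, a kinase that inhibits pyruvate dehydrogenase, rose by 0.77 ± 0.12 (SE; adjusted p = 0.0150). Pc, pyruvate carboxylase, was carried by 26 tested probes, which served as repeats within each array. All of them were higher with the class, from 0.49 to 1.33 with a median of 0.92, and 15 were called. Estradiol benzoate gave the smallest of the 3 changes on 25 of the 26. Of 16 sterol synthesis genes, 1 was called: Insig1, an endoplasmic reticulum protein that restrains SREBP processing, rose by 0.77 ± 0.16 (SE; adjusted p = 0.0289), and the list's median was 0.23.

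**Figure D2:**
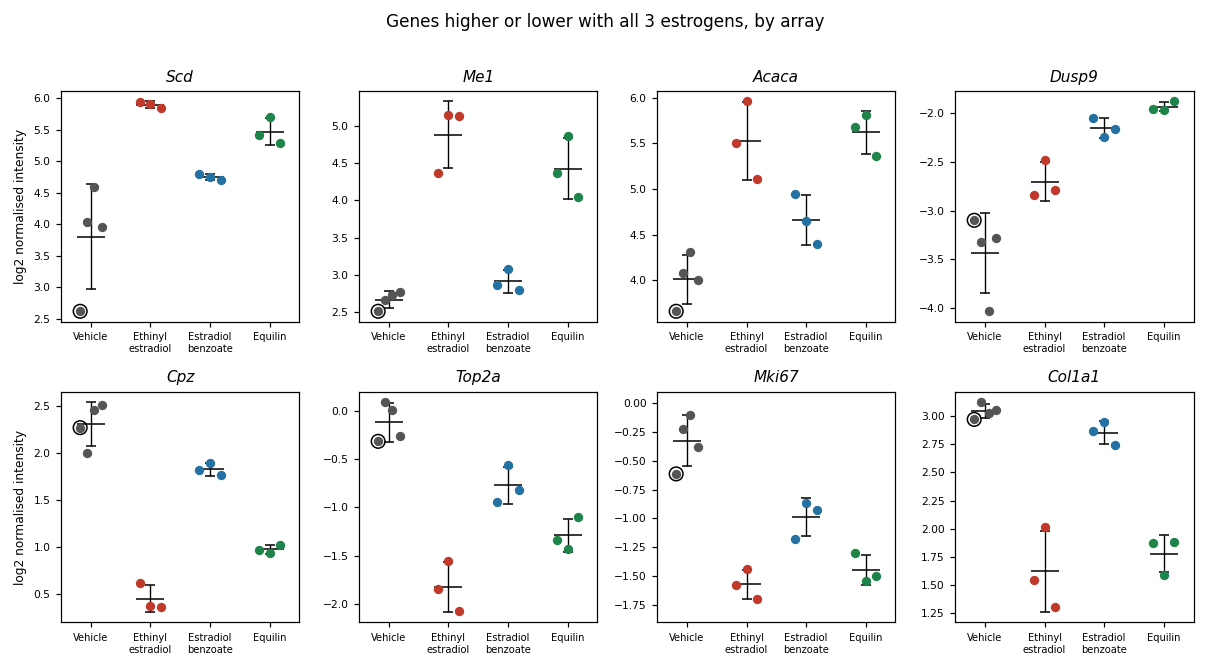
Log2 normalised intensity of 8 genes in each array (points), with group mean and SD (bars), in vehicle (4 arrays, vehicle array 1 circled) and the 3 estrogens (3 arrays each). Scd, Me1, Acaca and Dusp9 were higher and Cpz, Top2a, Mki67 and Col1a1 lower in every estrogen array than in any vehicle array, and estradiol benzoate lies nearest to vehicle in all but Dusp9.

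Outside lipid synthesis, the largest increases without overlap were in genes of varied function. Spock1, a proteoglycan of the extracellular matrix, was at 1.70, 2.54, 2.30 and 2.51 in vehicle, at 2.92, 3.30 and 3.15 with ethinyl estradiol, at 3.28, 3.51 and 3.24 with estradiol benzoate and at 3.44, 3.61 and 3.81 with equilin (class change 1.10 ± 0.15 SE, adjusted p = 0.0101). Here estradiol benzoate was no closer to vehicle than ethinyl estradiol. S1pr2, a receptor for sphingosine 1-phosphate on vascular cells, changed by 0.91, 0.82 and 1.35 with ethinyl estradiol, estradiol benzoate and equilin in that order, on a dim probe (adjusted p = 0.0101). A brighter S1pr2 probe had a class change of -0.31 (adjusted p = 0.332), so the probes for this gene disagree. Hsd17b2, the enzyme that oxidises estradiol to the weaker estrone, rose by 1.04 ± 0.16 (SE; adjusted p = 0.0141), with 0.82, 1.04 and 1.26 by compound in the same order. Its probe was dim too, with a mean level of -2.42.

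Most of the others were dim. Dusp9, a phosphatase of MAP kinases (1.17), Tp63, a transcription factor of the p53 family (1.11), Pfkfb4, a regulator of glycolysis (1.03), Slco1c1, a thyroid hormone transporter (1.01), and Il22ra2, a soluble binding protein for interleukin 22 (0.98), all had mean levels below that of the median probe. So did Agbl5, a tubulin carboxypeptidase, which changed by 0.79, 0.91 and 1.30 with ethinyl estradiol, estradiol benzoate and equilin. Tp63 illustrates their order: vehicle arrays were at -3.45, -2.61, -2.89 and -2.91, ethinyl estradiol at -2.12, -2.11 and -2.30, estradiol benzoate at -1.83, -1.93 and -1.74, and equilin at -1.58, -1.55 and -1.50. Equilin was highest and ethinyl estradiol lowest of the estrogens, as for Dusp9, Spock1, Hsd17b2, Pfkfb4 and Agbl5. Equilin gave the largest of the 3 changes in 170 of the 220 probes that rose, 129 of them among the 160 dimmer ones. Under quantile normalisation Hsd17b2 (adjusted p = 0.0610), Agbl5 (0.0593) and Il22ra2 (0.174) were no longer called.

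Genes of mitosis were lower. Of 24 tested, 7 fell and 1 rose, where 0.675% of all tested genes fell and 1.55% rose. The list's median change was -0.37, or -0.51 with quantile normalisation and -0.53 with centring on all probes. All 3 compounds were lower than vehicle in 17 of the 24 and higher in 5. Of all tested genes, 29.5% were lower and 25.7% higher with all 3. Top2a, the topoisomerase that untangles chromosomes before division, was at -0.32, 0.09, 0.01 and -0.26 in vehicle, at -1.84, -1.55 and -2.07 with ethinyl estradiol, at -0.94, -0.56 and -0.82 with estradiol benzoate, and at -1.34, -1.42 and -1.09 with equilin. The 4 groups did not overlap one another, and the class change was -1.17 ± 0.13 (SE; 0.444-fold, adjusted p = 0.00416). Mki67, which encodes the proliferation antigen Ki-67, had vehicle levels of -0.61, -0.22, -0.10 and -0.38. Its 9 estrogen arrays ran from -1.70 through a median of -1.44 to -0.86, with a class change of -1.01 ± 0.12 (SE; adjusted p = 0.00429).

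The others of the 7 were the spindle protein Nusap1 (-0.94), the mitotic kinase Pbk (-1.13), cyclin A2 (Ccna2, -0.65), the kinesin Kif20a (-0.68) and Cks2, a partner of cyclin-dependent kinases (-0.73). Outside the list, the spindle protein Aspm (-0.89), the centromere protein Cenpt (-0.96) and Mcm10, a replication initiation factor (-1.07), also fell. Ect2, which acts in cytokinesis, was the list's member that rose (0.60). None of 16 DNA replication genes in a separate list was called, and their median change was -0.02. At an unadjusted p under 0.05, limma gave 2 lower and none higher among those 16.

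The 250 bases upstream of the start are shown for 4 of these genes that fell together, since the promoters of mitotic genes are known for CCAAT boxes, bound by NF-Y, and for cell cycle homology regions. Sequences are from RefSeq on GRCr8, written 5′ to 3′ on the strand of the gene, and 8484 of the 10226 tested genes had an entry. Capitals mark CCAAT or TTTGAA on either strand (ATTGG and TTCAAA in reverse). The windows are chr10:84473094-84473343 on the minus strand for Top2a, chr1:199952594-199952843 on the minus strand for Mki67, chr3:127057045-127057294 on the plus strand for Nusap1 and chr13:53625334-53625583 on the plus strand for Aspm.
Top2a: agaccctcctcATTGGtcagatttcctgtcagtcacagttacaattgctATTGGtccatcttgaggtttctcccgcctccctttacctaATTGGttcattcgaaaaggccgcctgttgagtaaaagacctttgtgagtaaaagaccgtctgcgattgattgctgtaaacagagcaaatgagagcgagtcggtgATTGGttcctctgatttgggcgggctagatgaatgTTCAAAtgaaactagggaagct
Mki67: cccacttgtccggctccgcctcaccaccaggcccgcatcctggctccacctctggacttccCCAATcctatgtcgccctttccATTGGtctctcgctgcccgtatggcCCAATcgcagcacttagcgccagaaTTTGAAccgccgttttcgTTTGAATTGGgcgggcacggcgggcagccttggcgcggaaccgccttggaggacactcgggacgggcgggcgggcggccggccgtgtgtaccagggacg
Nusap1: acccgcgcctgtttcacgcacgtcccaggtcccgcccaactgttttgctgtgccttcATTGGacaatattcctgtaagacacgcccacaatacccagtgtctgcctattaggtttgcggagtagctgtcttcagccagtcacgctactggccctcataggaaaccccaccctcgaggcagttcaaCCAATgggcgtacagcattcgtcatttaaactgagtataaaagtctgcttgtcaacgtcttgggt
Aspm: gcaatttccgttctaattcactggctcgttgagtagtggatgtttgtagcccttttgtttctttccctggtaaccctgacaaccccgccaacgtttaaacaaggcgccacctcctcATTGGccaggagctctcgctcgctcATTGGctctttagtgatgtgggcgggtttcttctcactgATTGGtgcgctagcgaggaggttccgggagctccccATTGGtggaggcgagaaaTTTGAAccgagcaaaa

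CCAAT occurs 4 times in the windows of Top2a, Mki67 and Aspm and 2 times in that of Nusap1. TTTGAA occurs once in Top2a and Aspm, 2 times in Mki67, where 1 copy overlaps a CCAAT, and not at all in Nusap1. Of the 19 listed mitosis genes with a sequence, 16 held CCAAT and 9 held TTTGAA, whether or not they fell. Of 18 fatty acid synthesis genes with a sequence, a list in which genes rose, 12 held CCAAT and 0 held TTTGAA. Among all 27457 promoters in the table, CCAAT was found in 34.3% and TTTGAA in 16.0%, and among the 8484 tested genes in 35.3% and 10.3%. The palindromic estrogen response element, GGTCA and TGACC with any 3 bases between them, was found in none of the 8484 windows and in 6 of the 27457, so these letters do not occur in the windows of any called gene. CCAAT stood in 68 of 161 windows of genes that rose and in 20 of 57 of genes that fell. A match is a description of the letters and not evidence of binding.

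Some genes of the extracellular matrix and of Wnt signalling fell. Cpz, a secreted carboxypeptidase that binds Wnt proteins, had the lowest adjusted p of the class comparison among the genes named here. Its levels were 2.27, 1.99, 2.46 and 2.51 in vehicle, 0.61, 0.37 and 0.36 with ethinyl estradiol, 1.82, 1.89 and 1.76 with estradiol benzoate, and 0.97, 0.93 and 1.02 with equilin. The groups were separate and in a clear order, and the class change was -1.23 ± 0.11 (SE; 0.427-fold, adjusted p = 0.00155). Sfrp4, a secreted Wnt antagonist, fell by 1.29 on the log2 scale, with changes of -2.14, -0.20 and -1.54 for ethinyl estradiol, estradiol benzoate and equilin. Its estradiol benzoate arrays, from -1.02 to -0.76, overlapped the vehicle arrays, from -0.91 to -0.52.

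Col1a1, the main chain of type I collagen, was read by a probe at 2.97, 3.12, 3.02 and 3.05 in vehicle, at 1.55, 2.01 and 1.30 with ethinyl estradiol, at 2.87, 2.95 and 2.74 with estradiol benzoate and at 1.87, 1.59 and 1.88 with equilin (class change -0.96 ± 0.12 SE, adjusted p = 0.00861). A brighter second probe for Col1a1 gave -0.69 and was not called (adjusted p = 0.0878). In a list of 23 genes of fibrillar collagens and their processing 2 fell, where 0.675% of all tested genes fell. They were Pcolce, which speeds the trimming of procollagen (-0.60), and Loxl1, a crosslinking enzyme (-0.47), and neither is a collagen chain. The list's median change was -0.08, against -0.04 over all tested genes. Of 21 matricellular and elastic fibre genes 2 fell, periostin (Postn, -0.57) and tenascin C (Tnc, -1.19), the list's median was -0.29, and 14 of the 21 were lower with all 3 compounds while none was higher with all 3, where 29.5% of all genes were lower and 25.7% higher with all 3.

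The matrix proteases and inhibitors moved in both directions. The gelatinase Mmp2 (-0.46), Mmp23 (-0.55) and the broad inhibitor A2m (-1.18) fell, and the serine protease inhibitor Spink5 rose (1.41), among 17 tested. The shares over all tested genes were 0.675% that fell and 1.55% that rose. Srpx2, a secreted protein with sushi repeats, fell by 0.87 on the log2 scale, with -1.52, -0.22 and -0.86 by compound. None of 6 fibroblast markers was called in limma, 1 was lower at an unadjusted p under 0.05, and their median change was -0.12. Their summed intensity was 304 to 352 in vehicle, 246 to 300 with ethinyl estradiol, 291 to 312 with estradiol benzoate and 230 to 279 with equilin, with none at 0 in any array. In bulk tissue fewer cells of a type and less RNA per cell cannot be told apart, and the part of fibroblast content in the matrix changes was not tested.

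Other genes that fell included secreted proteins and immune genes. Alpl, tissue-nonspecific alkaline phosphatase, was at 2.14, 1.71, 2.51 and 2.42 in vehicle and ran from 0.16 through 0.94 to 1.65 in the 9 estrogen arrays, with a class change of -1.28 ± 0.20 (SE; adjusted p = 0.0141). Estradiol benzoate was closest to vehicle and equilin farthest. Of 16 adipokine genes 3 fell, all of the C1q/TNF-related family: C1qtnf12 (-1.26), C1qtnf3 (-0.73) and C1qtnf5 (-0.59). Of all tested genes, 0.675% fell and 1.55% rose. Adipoq itself was not called (0.43). Cxcl9, an interferon-induced chemokine (-0.94), fell, whereas in a list of 26 interferon genes 1 was called and it rose (Gbp5, 0.92). The summed intensity of 6 macrophage markers was 155 to 257 in vehicle and 141 to 177 with estrogens, and its part in the immune genes was not tested. Hdc, which makes histamine, fell by 0.58 on the log2 scale and was the 1 of 8 mast cell markers called. The summed intensity of these 8 markers was 29.7 to 37.0 in vehicle and 21.0 to 32.4 with estrogens, and the part of mast cell content was not tested. Nnat, neuronatin, fell, with levels of 5.81 to 6.05 in vehicle and of 4.23 to 5.86 with estrogens, and estradiol benzoate overlapped vehicle.

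**Figure D3:**
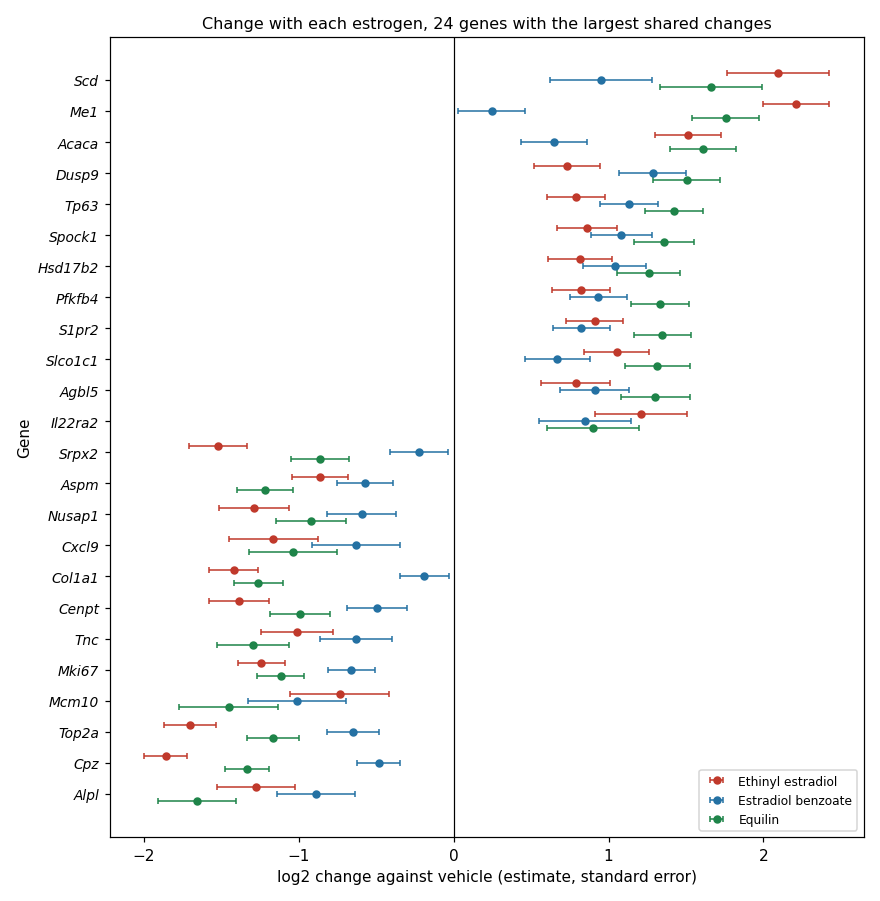
Log2 change against vehicle with each estrogen (points; bars are standard errors) for the 24 genes with the largest class changes that were called, had 1 sign in all 3 compounds and did not overlap vehicle. Estradiol benzoate is nearest to 0 for 11 of the 12 genes that fell and nearer to equilin than to 0 for Dusp9, Tp63 and Spock1.

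Among called probes, estradiol benzoate gave the smallest of the 3 changes in 138 of the 220 that rose and in 74 of the 81 that fell. For those that fell, median changes were -0.94 with ethinyl estradiol, -0.38 with estradiol benzoate and -0.85 with equilin, and ethinyl estradiol gave the largest in 53. For those that rose, the medians were 0.62, 0.48 and 0.80 in the same order. Tested alone against vehicle in the same limma fit, ethinyl estradiol had 171 called probes (1.28%) and equilin 515 (3.87%), while estradiol benzoate had 0 (0%), with 1004 at an unadjusted p under 0.05 and a lowest adjusted p of 0.155. At that unadjusted threshold, 287, 207 and 301 of the 301 class probes passed for ethinyl estradiol, estradiol benzoate and equilin. The class comparison uses these same changes, so the counts describe its makeup.

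In 4 called genes 1 compound had the other sign. Atosa was at 2.20, 2.17, 1.95 and 2.46 in vehicle, at 3.76, 3.51 and 3.72 with ethinyl estradiol, at 2.34, 2.71 and 2.97 with equilin, and at 1.99, 1.78 and 1.83 with estradiol benzoate. Estradiol benzoate was the odd one, at or below the lower end of the vehicle range, and it differed from ethinyl estradiol by 1.79 (adjusted p = 0.00357). Inhbb, a subunit of activin B and inhibin B, was the 1 gene in which ethinyl estradiol was the odd one. Its levels were -0.07, 0.40, -0.16 and -0.21 in vehicle and -0.15, 0.05 and -0.24 with ethinyl estradiol. They were 1.03, 0.85 and 1.09 with estradiol benzoate and 0.77, 0.76 and 0.81 with equilin, which were clear of the other groups. The difference of ethinyl estradiol from estradiol benzoate was -1.10 ± 0.17 (SE; adjusted p = 0.0216) and from equilin -0.89 ± 0.17 (SE; adjusted p = 0.0496).

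In the others, Tmem86a, a membrane protein, and Cyp7b1, an enzyme that hydroxylates oxysterols, estradiol benzoate changed by only 0.06 in each. Ethinyl estradiol changed by -0.92 and -0.85, and equilin by -0.47 and -0.60, so the odd sign came with a value near 0. None of the 4 genes kept its arrays clear of vehicle in all 3 compounds. Atosa and Tmem86a had class adjusted p values of 0.0497, just under the threshold. After quantile normalisation Atosa (adjusted p = 0.0594), Inhbb (0.0645) and Tmem86a (0.0778) were no longer called, and with centring on all probes Atosa (0.137) and Inhbb (0.103) were not. None of the 4 was called with the array set as a block (adjusted p from 0.343 to 0.752), although each kept its sign. Among all 5824 tested probes with mixed signs, ethinyl estradiol alone differed from the class sign in 2262, estradiol benzoate alone in 1668 and equilin alone in 856, and in 1038 more than 1 compound did.

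The receptors themselves and a classical target were not called. Esr1, which encodes ERα, was dim, at -1.48, -1.70, -2.25 and -2.26 in vehicle and from -2.12 to -1.49 with estrogens (class change 0.18, 95% CI -0.19 to 0.54, adjusted p = 0.582), and its sign turned with quantile normalisation (-0.02) and with the array set block (-0.27). Esr2, for ERβ, had 2 probes with class changes of 0.22 (adjusted p = 0.229) and 0.54 (0.0811), and Gper1 had -0.11 (95% CI -0.61 to 0.39, adjusted p = 0.814). Pgr, the progesterone receptor gene induced by estrogen in reproductive tissue, was at -1.88, -1.67, -2.05 and -1.94 in vehicle and reached -1.40, -0.97 and -1.34 with equilin, above the vehicle range. Its class change of 0.45 (95% CI 0.17 to 0.72) had an adjusted p of 0.0823. In a list of 22 known estrogen response genes 1 was called, Inhbb, which rose, where 1.55% of all tested genes rose.

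In lists of vascular signalling, steroid and xenobiotic metabolism and oxidative phosphorylation few genes were called. Over all tested genes 1.55% rose and 0.675% fell, and no list was tested as a set. Of 19 vasoactive receptors 1 rose, Ntsr1, the neurotensin receptor (1.01 ± 0.18 SE, adjusted p = 0.0184), with vehicle levels from -2.32 to -1.17 and estradiol benzoate levels from -1.53 to -1.35, inside the vehicle range. None of 19 genes of nitric oxide, prostanoids and endothelin was called, with 2 higher and 3 lower at an unadjusted p under 0.05 in limma. Nos3, the endothelial nitric oxide synthase, changed by -0.15, and Ptgs1, cyclooxygenase 1, by -0.61 on the brighter of 2 probes (adjusted p = 0.0512) and by 0.38 on the other. None of 12 genes of the renin-angiotensin and apelin systems was called for the class, with 2 higher and 2 lower at the unadjusted threshold. Of 14 steroid metabolism genes 2 rose, Hsd17b2 and the hydroxysteroid dehydrogenase Akr1c14 (0.88, with 1 equilin array missing), and of 23 xenobiotic metabolism genes Cbr1 rose and the aldehyde dehydrogenase Aldh3a1 fell (-0.84). Among 35 genes of oxidative phosphorylation none was called, with 3 higher and 1 lower at the unadjusted threshold, and the list's median was 0.05.

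The 3 pairs of estrogens were then compared at the same dose and time, with p-values adjusted over the 3 pairs together. Ethinyl estradiol differed from estradiol benzoate in 67 probes (0.503%), higher in 38 and lower in 29. It differed from equilin in 53 (0.398%), higher in 49 and lower in 4. Equilin differed from estradiol benzoate in 9 (0.0676%), higher in 6 and lower in 3. At an unadjusted p under 0.05 the counts were 1900, 1940 and 863. An F-test of any difference among the compounds called 87 probes (81 genes, 0.653%), of which 26 were also among the 301 class probes. The median half-width of the 95% confidence interval of a pair difference was 0.46, so differences smaller than this are not excluded for most genes.

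In some genes of the class response estradiol benzoate stayed near vehicle while the other estrogens did not. Cbr1, a carbonyl reductase of quinones and prostaglandins, was at 3.20, 3.15, 3.53 and 2.88 in vehicle and at 3.40, 3.07 and 3.16 with estradiol benzoate. It was at 5.07, 4.93 and 5.51 with ethinyl estradiol and at 4.92, 4.92 and 5.03 with equilin. Estradiol benzoate lay within the vehicle range, and the other estrogens were clear of both. Ethinyl estradiol exceeded estradiol benzoate by 1.96 ± 0.18 (SE; adjusted p = 0.00357) and equilin exceeded it by 1.74 ± 0.18 (SE; adjusted p = 0.00541), while ethinyl estradiol and equilin differed by 0.22 (95% CI -0.18 to 0.61, adjusted p = 0.691).

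The same order held in Me1 and Mpc1. For Me1, estradiol benzoate was lower than ethinyl estradiol by 1.97 (adjusted p = 0.00731) and lower than equilin by 1.51 (adjusted p = 0.0227), and for Mpc1 by 1.16 (adjusted p = 0.0100) and 1.02 (adjusted p = 0.0145). Spink5 had 3 probes, and the strongest gave 2.15 and 1.98 (adjusted p = 0.0324 and 0.0436). In the lower direction, the same order was seen in Cpz (-1.38 and -0.85), Sfrp4 (-1.95 and -1.35) and Col1a1 (-1.23 and -1.07), each called in both pairs. The 95% interval for ethinyl estradiol minus equilin was -0.04 to 0.95 for Me1, -0.16 to 0.45 for Mpc1, -0.53 to 0.21 for Col1a1, -0.85 to -0.20 for Cpz and -1.05 to -0.14 for Sfrp4. The Cpz and Sfrp4 intervals lie below 0 without passing the adjusted test (adjusted p = 0.197 and 0.315).

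For other genes of the class response no pair passed. Scd was higher with ethinyl estradiol than with estradiol benzoate by 1.14 (95% CI 0.38 to 1.91, adjusted p = 0.242), and Acaca higher with equilin than with estradiol benzoate by 0.96 (95% CI 0.47 to 1.45, adjusted p = 0.122). For Dusp9 the difference ran the other way, with ethinyl estradiol minus equilin at -0.77 (95% CI -1.27 to -0.27, adjusted p = 0.223). For S1pr2 ethinyl estradiol and estradiol benzoate differed by 0.09 (95% CI -0.34 to 0.51). A p above the threshold does not show that these compounds act alike.

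The F-test also called a group of genes in which ethinyl estradiol stood on 1 side of vehicle and the other estrogens on the opposite side. Of the 87 probes, 47 were higher than vehicle with ethinyl estradiol and lower with both estradiol benzoate and equilin. A further 12 were higher and 10 lower with all 3, and 10 were higher with estradiol benzoate alone. Over all 13321 tested probes these patterns numbered 1768, 3917, 3580 and 894 in the same order. The signs against vehicle were taken without a test. Some changes were near 0, such as those of Ano6 with estradiol benzoate (-0.01) and equilin (-0.06). Of the 53 probes that differed between ethinyl estradiol and equilin, 51 had opposite signs against vehicle, as had 39 of the 67 for ethinyl estradiol and estradiol benzoate and 0 of the 9 for equilin and estradiol benzoate. Over all 13321 tested probes, the patterns with opposite signs numbered 1768, 1147, 594 and 482 for the first pair. They numbered 1768, 1147, 939 and 894 for the second and 939, 894, 594 and 482 for the third. A large pair difference itself favours opposite signs, so these are counts only.

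Hspb1, a small heat shock protein abundant in smooth muscle, was at 5.06, 5.07, 5.37 and 5.70 in vehicle, at 6.29, 6.22 and 6.68 with ethinyl estradiol, at 4.42, 5.07 and 4.67 with estradiol benzoate and at 4.77, 4.54 and 4.54 with equilin. Ethinyl estradiol was above every other array, and the difference was 1.68 ± 0.20 (SE) from estradiol benzoate (adjusted p = 0.0100) and 1.78 ± 0.20 (SE) from equilin (adjusted p = 0.00731), with a class change of -0.06. Equilin minus estradiol benzoate was -0.10 (95% CI -0.54 to 0.34). Fmo2, a flavin monooxygenase, was at 2.42, 1.66, 1.77 and 1.99 in vehicle, at 3.84, 2.52 and 3.93 with ethinyl estradiol, at 0.72, 1.22 and 0.51 with estradiol benzoate and at 1.39, 1.12 and 1.68 with equilin. Its difference between ethinyl estradiol and estradiol benzoate was 2.61 ± 0.34 (SE; adjusted p = 0.0128), and a second probe gave the same order.

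Fkbp5, an HSP90 co-chaperone induced by glucocorticoids, followed the same pattern. It was at 1.61, 1.93, 1.78 and 1.65 in vehicle, at 2.81, 2.53 and 2.01 with ethinyl estradiol, at 0.62, 0.82 and 0.45 with estradiol benzoate and at 1.17, 0.71 and 1.61 with equilin. The differences were 1.82 (adjusted p = 0.0128) and 1.29 (adjusted p = 0.0485) for ethinyl estradiol against estradiol benzoate and equilin. Map1b, a microtubule-binding protein, and P3h2, a collagen prolyl hydroxylase, were higher with ethinyl estradiol than with equilin by 1.74 (adjusted p = 0.00731) and 1.42 (adjusted p = 0.0128), as was Ak4, a mitochondrial adenylate kinase, by 1.40 (adjusted p = 0.0337).

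In 4 of the 87 probes the arrangement was reversed, lower than vehicle with ethinyl estradiol and higher with the others. Pfkl, a subunit of the glycolytic enzyme phosphofructokinase, was at 3.87, 3.53, 3.66 and 3.24 in vehicle, at 3.00, 3.05 and 3.36 with ethinyl estradiol, at 4.24, 3.79 and 3.82 with estradiol benzoate and at 4.34, 4.60 and 4.79 with equilin. Ethinyl estradiol minus equilin was -1.44 ± 0.19 (SE; adjusted p = 0.0128), and for Arsi, a sulfatase, it was -1.51 (adjusted p = 0.0444). In the 10 probes that were higher with estradiol benzoate alone, equilin was below vehicle by definition, and its distance from vehicle varied. Aplnr, the apelin receptor, was at 0.05, 0.76 and -0.80 with ethinyl estradiol and from 1.21 to 1.67 in vehicle. With equilin it was at 1.26, 1.15 and 1.35, a change of -0.16 against -1.41 with ethinyl estradiol. Another Aplnr probe had a class change of 0.59, against -0.39 for the probe shown. On the probe shown, the difference between ethinyl estradiol and estradiol benzoate was -1.81 (adjusted p = 0.0321). Hsd11b2, which inactivates glucocorticoids, differed between them by -1.80 (adjusted p = 0.0142), with changes against vehicle of -1.55 and 0.25, and of -0.80 with equilin.

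**Figure D4:**
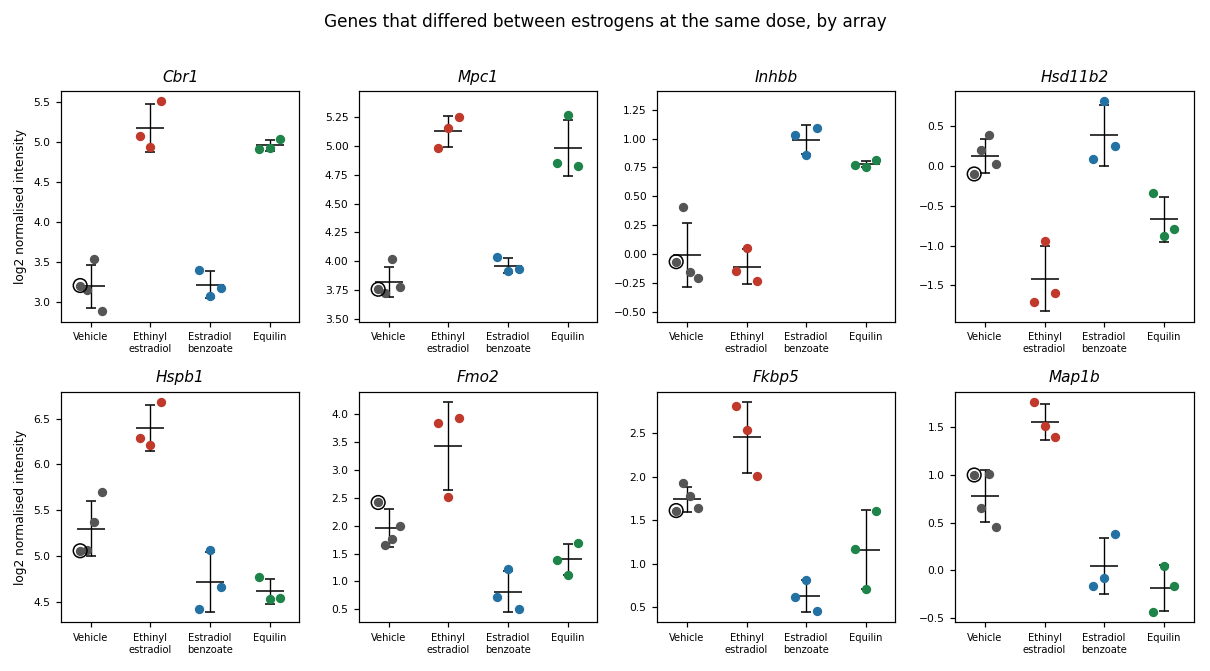
Log2 normalised intensity of 8 genes that differed between estrogens, in each array (points), with group mean and SD (bars), in vehicle (4 arrays, vehicle array 1 circled) and in the 3 estrogens (3 arrays each). In Cbr1 and Mpc1 estradiol benzoate stays at the vehicle level, in Inhbb ethinyl estradiol does, and in Hspb1, Fmo2, Fkbp5 and Map1b every ethinyl estradiol array lies above vehicle and those of estradiol benzoate and equilin lie at its lower edge or below.

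The lists show the same contrast between compounds. Over all tested genes the median changes were 0.01 with ethinyl estradiol, -0.02 with estradiol benzoate and -0.05 with equilin. Of 18 heat shock genes, 17 were higher than vehicle with ethinyl estradiol, none with estradiol benzoate and 2 with equilin, with median changes of 0.27, -0.39 and -0.38. With quantile normalisation the heat shock medians were 0.25, -0.42 and -0.37, and with centring on all probes 0.14, -0.53 and -0.59. The F-test called 3 of the 18 (0.724% over all genes): Hspb1, Hspb6 and the chaperone Hsp90ab1. Of 23 contractile genes of smooth muscle, 21 were higher with ethinyl estradiol, 7 with estradiol benzoate and 9 with equilin, with medians of 0.32, -0.18 and -0.24 (0.12, -0.19 and -0.36 after quantile normalisation). The F-test called 2 of them, Lmod1, which nucleates actin filaments, and Ppp1r14a, an inhibitor of myosin phosphatase. Pln, which restrains the calcium pump of the sarcoplasmic reticulum, and the calcium channel gene Cacna1h were called among 19 genes of calcium and potassium handling.

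The summed intensity of 6 smooth muscle markers, among them Lmod1, is not a separate measure from the contractile genes above. It was 670 to 860 in vehicle, 810 to 907 with ethinyl estradiol, 488 to 649 with estradiol benzoate and 584 to 672 with equilin, with none of the markers at 0 in any array. The part of smooth muscle content in these differences was not tested. Pancreatic enzyme genes, which mark another tissue, summed to 933 on ethinyl estradiol array 3, to between 3.77 and 16.1 on the other 8 estrogen arrays and to between 10.1 and 133 in vehicle, the highest being vehicle array 1. None of their 8 tested genes was called in limma, or passed an unadjusted p under 0.05 (0 of 8), and the part of this tissue in the comparisons was not tested. Without ethinyl estradiol array 3 the class called 414 probes and the F-test 86.

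**Figure D5:**
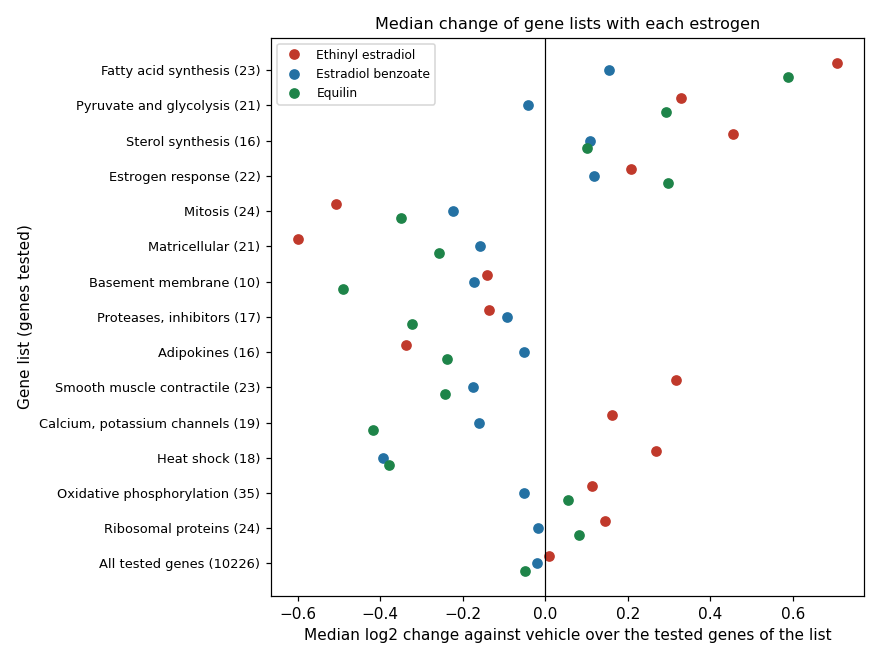
Median log2 change against vehicle (horizontal axis) over the tested genes of 14 lists and over all tested genes, with each estrogen as a point. The 3 estrogens lie on the same side of 0 for fatty acid synthesis, mitosis and matricellular genes, and ethinyl estradiol lies on the other side from estradiol benzoate and equilin for contractile, channel and heat shock genes.

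Leaving out single arrays changed the number of calls widely. The class called 37 probes without vehicle array 1, 52 without vehicle array 3 and 100 without vehicle array 4. It called 103, 110 and 138 without estradiol benzoate arrays 1, 2 and 3, 91 and 103 without equilin arrays 2 and 3, and 414 without ethinyl estradiol array 3. In all 13 such fits 25 probes stayed called, each for a different gene. Among them were Acaca, Acss2, Cbr1, Col1a1, Cpz, Dusp9, Hsd17b2, Me1, Mki67, Mpc1, Nnat, Pc, Pfkfb4, S1pr2, Scd, Sfrp4, Spock1, Top2a and Tp63. Pc stayed by 1 of its 26 probes, of which 15 were called with all 13 arrays. With the array set as a block, vehicle array 1 is the only control, so each class change depends on where that array lies. Among the vehicle arrays it lay farthest from the estrogens in 99 of the 301 called probes and nearest in 43. Class changes in the block included Scd (2.75), Me1 (1.56), Acaca (1.61), Spock1 (1.67), Tp63 (1.60), Cbr1 (1.25), Mpc1 (0.93), Cpz (-1.19) and Sfrp4 (-1.49). Array 1 was the lowest vehicle array for Scd, Me1, Acaca, Spock1 and Tp63, but not for Cbr1 or Mpc1. Top2a (-0.98), Mki67 (-0.72) and Col1a1 (-0.88) also kept their sign in that block, with smaller changes than without it. Between compounds, 10 probes stayed called in every such fit for ethinyl estradiol against estradiol benzoate, namely Aacs, Atosa, Cbr1, Cdkn1a, Cpz, Hspb1, Me1, Mpc1, Nnat and Sfrp4. For ethinyl estradiol against equilin 3 did, Hspb1, Map1b and P3h2, and for equilin against estradiol benzoate 1, Cbr1.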

How the data were processed

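Deposited values were intensity on a linear scale, 1 per probe, that appear background-subtracted and scaled to a like median on every array, as judged from the values. The series' design text names a GenePix scanner, and the program behind the values was not stated. Values below 0 were taken as 0 and log2 was computed after adding 0.104, a constant equal to 0.1 of the median, which understates changes of dim probes. The 384 regularly spaced probes, 39 probes with over 1 missing array in any group and the dimmest 30% were left out, and each array was centred on the median of the 24197 tested probes. limma 3.58.1 (R 4.3.3) fitted 4 group means over 13 arrays with a variance trend, with 9 residual degrees of freedom and Benjamini-Hochberg adjustment over all tested probes (for pairs, over the 3 pairs). Leaving out the SERM arrays and the regularly spaced probes and centring on tested probes were choices, and the alternatives are given below.

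Named genes were the 12 highest and 12 lowest called genes with 1 sign and no overlap, 1 probe per gene by lowest p, called genes with 1 odd compound, up to 5 per pair and direction, up to 3 called members per list, the receptors and Pgr. Values of list members not called, the lists' other called members, Cdkn1a and the genes called in every fit were added after their values were seen. List genes took their brightest probe. Members and lists were chosen with earlier results of these data known. Same-numbered arrays were not seen to deviate together: of 18 pairs, 2 correlated above 0.1. Replicate numbers were therefore not used to pair the rats in the main fit, although a pairing is not excluded. The scripts were tested on simulated data.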

Additional observations from a re-analysis of the deposited data

Results flagged for a closer look

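In 5 of 70 probes named in the text, 1 of the 4 vehicle arrays lay far from the other 3 by Dixon's criterion, a criterion that chance meets in about 1 group of 20. Il22ra2 was at -4.17 in vehicle array 1, with its nearest neighbour at -3.05. Srpx2 was at 1.58 in vehicle array 1, Mcm10 at -1.98 in vehicle array 2, C1qtnf3 at -1.58 in vehicle array 3 and Ak4 at -0.84 in vehicle array 4. The 384 regularly spaced unnamed probes, which enter no comparison, had a median of at least -0.55 in every estrogen array and of at most -3.27 in vehicle arrays 2 to 4, with -0.35 in vehicle array 1. What these probes are was not stated.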

How the results depend on the processing

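Class calls numbered 134 with quantile normalisation, 189 with centring on all probes, 106 without a filter on dim probes, 123 with all 20 arrays, 724 with 19 arrays (without the third raloxifene array) and 81 with the array set as a block. Those with 1 sign in all 3 compounds numbered 131, 183, 104, 123, 715 and 81 in the same order. The F-test among compounds called 53 without the filter, 33 with 20 arrays, 219 with 19 and 508 with array weights. Ethinyl estradiol against estradiol benzoate gave 43, 31, 147 and 516 in these settings, ethinyl estradiol against equilin 35, 17, 129 and 762 (34 with quantile normalisation), and equilin against estradiol benzoate 5 with 20 arrays, 16 with 19 and 1247 with array weights. The cause of these shifts was not tested.

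Leaving out single arrays, the class called 37 to 414 probes, 37 to 408 of 1 sign. The F-test called 24 (without ethinyl estradiol array 1 or estradiol benzoate array 2) to 155 (without vehicle array 4), and the pairs 18 to 96, 5 to 104 and 1 to 15. A pairing by replicate number was not seen but is not excluded. With the replicate block the class called 12 probes (11 of 1 sign), the F-test 44, ethinyl estradiol against estradiol benzoate 36 and against equilin 26. Same-numbered arrays correlated from -0.36 to 0.17 over 18 pairs and others from -0.32 to 0.39 over 45.

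Class changes of 2 receptors that were not called turned sign: Esr1 to -0.0152 with quantile normalisation and -0.267 with the array set block, and Gper1 to 0.0455 with that block and, leaving out single arrays, between -0.220 and 0.0419 (0.0315 without ethinyl estradiol array 2). Quantile normalisation without ethinyl estradiol array 3, chosen after seeing the data, called 210 probes for the class. The limits are 3 or 4 arrays per group, 1 control array in the estrogens' array set, and a pair interval of 0.46 on either side.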

Other observations

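Of further genes that passed the F-test, Gys2, a glycogen synthase, changed by 1.18 with ethinyl estradiol, 0.01 with estradiol benzoate and 1.22 with equilin. Mgst2, a microsomal glutathione S-transferase, changed by 1.60, 0.33 and 1.17 in the same order. Among genes that fell, Fndc1 changed by -1.07, -0.12 and -0.70, and Wnt5b, a Wnt ligand, by -1.09, -0.04 and -0.61. All 4 passed the F-test among the compounds (limma adjusted p = 0.0466, 0.0131, 0.0488 and 0.0410), and they were chosen after their values were seen.

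Cdkn1a, which encodes the cell cycle inhibitor p21, changed by 0.50 with ethinyl estradiol, -0.75 with estradiol benzoate and -0.47 with equilin (limma F-test adjusted p = 0.00585), whereas the mitosis list had a median below 0 with each compound. Avpr1a, a vasopressin receptor of smooth muscle, changed by 0.51, -0.30 and -0.65 (adjusted p = 0.0154). Probes of 1 gene did not always move together: of 3 Cish probes, the one that was called changed by -1.65 and the others by 0.19 and 0.55. Both Tnc probes were called in 1 direction (-0.98 and -1.19).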
